A study of Mus musculus with 29 samples.

Results

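Described here are 7 genes that p53 switches on: Cdkn1a, Ccng1, Mdm2, Pmaip1, Bax, Trp53inp1 and Phlda3. They were chosen by name, as established targets of this transcription factor, and not by a cutoff on their values. All 7 were listed in the count tables of each tissue and age, among 19704 genes in young brain, 27514 in aged brain and 16623 in blood.

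The tumour suppressor p53 is a transcription factor that accumulates after DNA damage and other stress, when its destruction by the ubiquitin ligase Mdm2 is blocked. Its targets stop the cell cycle (Cdkn1a, which encodes the cyclin-dependent kinase inhibitor p21, and Ccng1, which encodes cyclin G1) or start mitochondrial cell death (Bax, a pore-forming member of the BCL2 family, and Pmaip1, which encodes the BH3-only protein Noxa). Mdm2 is itself a target and closes a negative feedback loop, Trp53inp1 encodes a stress-induced p53 cofactor, and Phlda3 encodes a repressor of Akt. Several of them, Cdkn1a above all, are also induced by other transcription factors.

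Single-cell RNA was counted by Drop-seq, which captures cells in droplets with barcoded beads, in 29 libraries. The mice, all C57BL/6J, had the middle cerebral artery blocked for a time and reopened (stroke), or had sham surgery. In young males (age 8 to 10 weeks), brain was sampled in 4 libraries per group: sham day 2, stroke day 2 and stroke day 14. Blood came from the same 3 groups, in 4, 4 and 3 libraries. In aged mice (17 to 20 months) only brain was sampled, with 1 male and 1 female sham library, 1 male and 2 female stroke libraries of day 2 and a single female stroke library of day 14. A brain library held sorted microglia, CD45-high leukocytes and endothelial cells from 4 to 5 pooled hemispheres, and a blood library held leukocytes pooled from 2 mice. All cells, sham included, were prepared in actinomycin D, an RNA polymerase inhibitor that is itself known to act on p53, so no comparison here is free of it. The sham libraries analysed here are all of day 2 and serve as the reference for either time of stroke, so a difference at day 14 against sham holds the longer time since surgery as well as the stroke.

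Counts of all cells of one annotated type were summed within a library, and levels are given as CPM (counts scaled to the same total for each sum), so a value says nothing on how many cells carried it. Brain libraries held 1143 to 5121 cells and 819438 to 5855047 counts, blood libraries 2360 to 6328 cells and 966914 to 5232662 counts. Of the 12 young brain libraries, 5 (1 sham, 2 of stroke at day 2, 2 of stroke at day 14) had a median mitochondrial share of 0.235% to 0.559% and 7 had 1.68% to 3.38%. Of 406 pairs of libraries, 231 shared a cell barcode, at most 7 barcodes and 0.169% of the smaller library. The library of young stroke day 2 replicate 3 stands apart in microglia: it held only 58 of them, the 6 microglial markers summed to 644 CPM (P2ry12 was at 3.25 CPM and Sall1 at 0) against a median of 13127 CPM in that group, and 5 monocyte markers summed to 811 CPM. In sham microglia the microglial markers summed to 17444 to 25265 CPM, above the highest day 2 library (13960 CPM) and all day 14 libraries (13556 to 17123 CPM). The monocyte markers summed to 0 to 23.3 CPM in sham, 0 to 811 CPM at day 2 and 0 to 67.4 CPM at day 14. The part of these differences in the microglial results was not tested. For the members in microglia at day 2 the value without it is therefore also given. The annotated type had its own marker list highest for microglia, endothelial cells, monocyte-derived cells, granulocytes, border-associated macrophages, neutrophils, monocytes, and B, T and NK cells. The dendritic cells of both tissues had the monocyte list highest, at 792 CPM per gene against 194 CPM for the dendritic list in young brain.

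On the GRCm38 assembly and its GENCODE annotation, Cdkn1a lies at chr17:29090976-29100727 on the plus strand, Ccng1 at chr11:40748552-40755311 on the minus strand and Mdm2 at chr10:117688875-117710758 on the minus strand. Bax lies at chr7:45461697-45466898 (minus), Trp53inp1 at chr4:11156431-11174379 (plus) and Phlda3 at chr1:135766119-135769136 (plus). Bax overlaps the protein-coding model Gm45808 on its own strand, and Cdkn1a overlaps the uncharacterised model AC167363.2 on the opposite strand, so the counts of these 2 genes are uncertain as far as the counting could assign shared reads to either. The promoter windows of RefSeq (GRCm38.p6; 250 bases before to 50 bases after a start) were available for 5 of the 7 genes, in 6 windows. They were searched for the p53 half-site, a pattern of 10 letters that reads the same on both strands, and for the full site of 2 half-sites with at most 13 bases between them. An exact half-site is held by 8.36% of 32851 promoter windows and an exact full site by 0.0731% (24 windows). The following stretches are shown because they hold the best full site of their gene, with the half-sites in capitals:
Cdkn1a: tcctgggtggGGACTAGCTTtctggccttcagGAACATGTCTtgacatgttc
Ccng1: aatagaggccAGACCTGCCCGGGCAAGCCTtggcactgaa
Bax: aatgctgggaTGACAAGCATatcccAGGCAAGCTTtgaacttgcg
The Cdkn1a site (chr17:29090906-29090937, plus strand, from 73 to 42 bases before the start of its first window) is exact, with a spacer of 12 bases. Only the pair of half-sites with the fewest mismatches was marked. The lower-case letters right after its second half-site form a near-match with that half-site without a spacer, which was left unmarked. The Ccng1 site (chr11:40755462-40755481, minus strand) has 1 mismatch and no spacer, and the Bax site (chr7:45467090-45467114, minus strand) has 2 mismatches and a spacer of 5; a full site with up to 2 mismatches is held by 4.09% of the windows. Mdm2 had 1 exact half-site, 186 bases before its start, and no full site, and Phlda3 and the second Cdkn1a window had none. These matches describe the letters of these windows only.

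In the young brain, Cdkn1a was high in infiltrating, border and endothelial cells and low in lymphocytes. Over the 12 libraries its median was 1293 CPM in monocyte-derived cells (range 971 to 1896), 919 in endothelial cells, 873 in dendritic cells, 760 in border-associated macrophages, 252 in microglia (60.7 to 591), 222 in granulocytes and 135 in T cells, with 24.7 in NK cells and 11.7 in B cells. Of the neighbours in this order, border-associated macrophages and microglia passed the test: the difference was 1.58 on the log2(CPM + 10) scale, in the same direction in 11 of 12 libraries (exact sign-flip permutation test, adjusted p = 0.0227 over the 93 neighbouring pairs tested in both tissues). T cells exceeded NK cells by 2.34 in 6 of 6 libraries (p = 0.0312, exact permutation, adjusted p = 0.194), and with 6 libraries no smaller p was possible.

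Pmaip1 was highest in dendritic cells, at a median of 634 CPM, followed by border-associated macrophages (219), monocyte-derived cells (187) and microglia (54.7), with B cells, T cells and endothelial cells at 51.3, 49.0 and 48.3 CPM. Dendritic cells exceeded border-associated macrophages in 12 of 12 libraries (difference 1.56, adjusted p = 0.0114, exact permutation) and monocyte-derived cells exceeded microglia in 11 of 12 (1.41, adjusted p = 0.0114). The median of Trp53inp1 was 133 CPM in T cells, 94.3 in B cells, 61.6 in granulocytes and 28.3 in endothelial cells, against 15.6 in microglia, 9.38 in border-associated macrophages, 8.57 in monocyte-derived cells and 6.39 in dendritic cells, and endothelial cells exceeded microglia in 12 of 12 libraries (0.96, adjusted p = 0.0114, exact permutation).

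Mdm2, Ccng1 and Bax were spread more evenly. Mdm2 had medians from 67.1 CPM in monocyte-derived cells to 32.9 in endothelial cells, and 0 in the sparsely sampled B cells, and no pair of neighbours passed the test. Ccng1 ran from 127 CPM in B cells and 105 in microglia to 52.9 in endothelial cells and 31.4 in granulocytes, and of its neighbours monocyte-derived cells (69.9) and endothelial cells passed (0.56, 11 of 12 libraries, adjusted p = 0.0202, exact permutation). Bax was highest in monocyte-derived cells (214 CPM) and lowest in granulocytes (56.0 CPM), and no pair of its neighbours passed. Only types with at least 20 cells in at least 6 libraries were ranked. Among these 9 types Phlda3 was low: its median was 8.70 CPM in endothelial cells (0 to 46.5), 1.08 in monocyte-derived cells and 0.506 in microglia, and 0 in the other 6 types. In 2 types too sparse to rank, it was at 251 CPM in the 71 oligodendrocytes and 69.4 CPM in the 75 epithelial cells of all young brain libraries pooled (21.9 and 4.19 counts). These pooled values are not on a par with the endothelial range over libraries. The only epithelial sum with at least 20 cells, in sham replicate 1, was at 41.2 CPM, within that range. This is a description without a test.

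**Figure D1:**
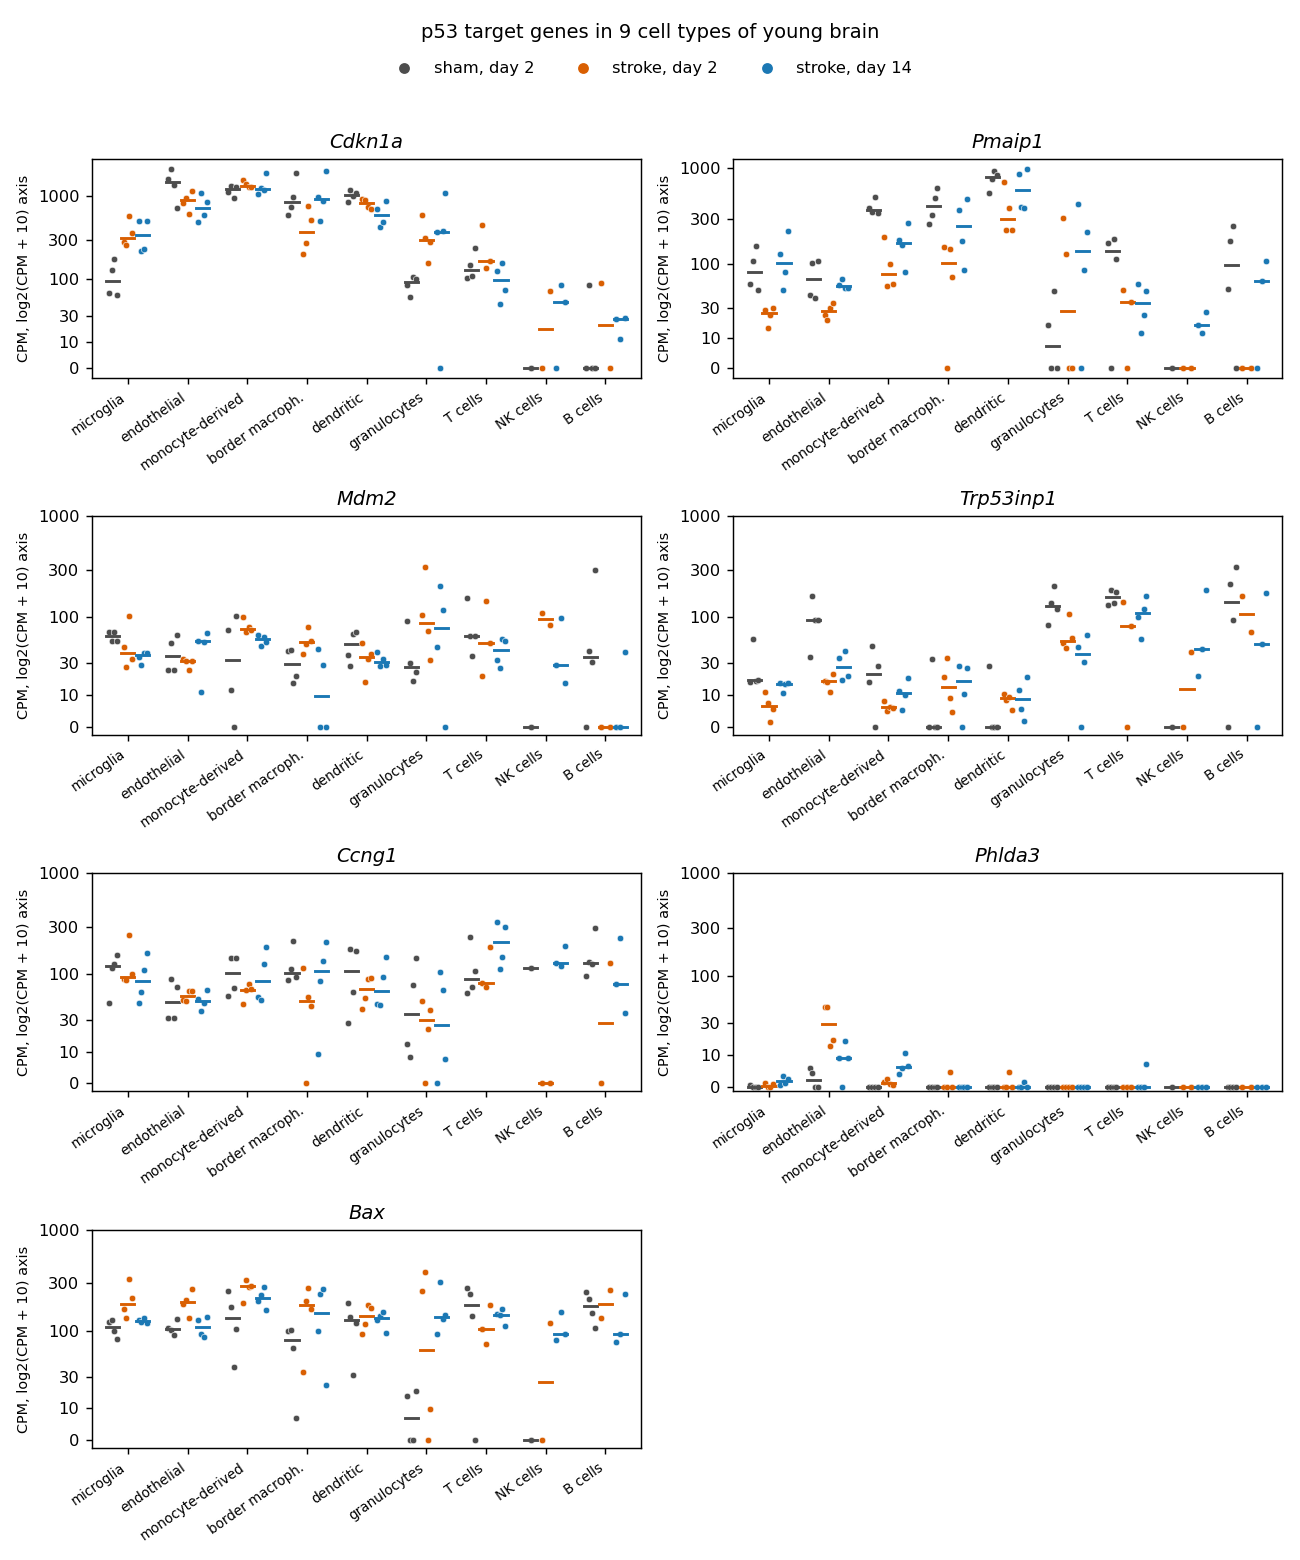
Level of each of the 7 p53 target genes in 9 cell types of young brain: points are libraries (CPM on a log2(CPM + 10) axis), short lines are medians of a group, and colours are sham day 2, stroke day 2 and stroke day 14. Cdkn1a spans 971 to 1896 CPM in monocyte-derived cells over all groups, while in microglia the sham libraries lie below both stroke groups, and of the types shown Phlda3 has its highest values, up to 46.5 CPM, in endothelial cells.

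In young microglia, the resident macrophages of the brain, stroke was followed at day 2 by more Cdkn1a and Bax and less Pmaip1 and Trp53inp1. Phlda3 was too low to test, and of the other 6 members these 4 passed the threshold (edgeR, adjusted p under 0.05), in a comparison in which 31.4% of the 10145 genes tested did. The members' median log2 fold change was −0.24, against −0.05 over all genes tested.

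Cdkn1a was at 65.9, 131, 176.5 and 60.7 CPM in the 4 sham libraries and at 288, 267, 591 and 362 CPM in the 4 stroke libraries of day 2. The groups did not overlap. The log2 fold change was 1.79 ± 0.41 (SE, adjusted p = 0.00596 by edgeR), it was kept with any 1 library left out, and it was 1.68 (adjusted p = 0.0141) without stroke replicate 3. At day 14 the libraries were at 513, 224, 238 and 511 CPM, again all above sham: the change was 2.21 ± 0.40 (adjusted p = 0.00261 by edgeR, kept with any library left out), and Cdkn1a alone passed among the 6 members tested, where 15.2% of all genes did. Day 14 and day 2 did not differ beyond the error (0.42 ± 0.40, adjusted p = 0.605, edgeR). Ccng1, the other member tied to the cell cycle, did not pass at either time: its means were 112 ± 46.2 CPM in sham, 130 ± 77.5 at day 2 and 96.8 ± 52.4 at day 14 (SD, n = 4 each). The day 2 mean rests on stroke replicate 3, at 246 CPM against 87.1 to 100 CPM in the 3 others: the log2 fold change at day 2 was 0.01 with it and −0.11 (adjusted p = 0.875, edgeR) without it.

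Of the death genes, Bax was at 122, 128, 98.5 and 81.8 CPM in sham and at 166, 135, 329 and 213 CPM at day 2. The highest sham library lay just below the lowest stroke library, and the change was 0.97 ± 0.24 (adjusted p = 0.00890 by edgeR). It missed the threshold without stroke replicate 4 (0.78, adjusted p = 0.0536) and was 0.88 (adjusted p = 0.0185) without stroke replicate 3. At day 14 Bax was at 119 to 134 CPM, within reach of the sham libraries. With TMM scaling the change was 0.68 ± 0.23 (adjusted p = 0.0588, edgeR), more than these CPM show. Scaling by library size alone lowers the changes in that comparison, as given for Mdm2 below.

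Pmaip1 moved against Bax. It was at 59.4, 109, 156 and 49.5 CPM in sham and at 27.6, 15.2, 23.6 and 29.4 CPM at day 2, so that every stroke library lay below every sham library. The change was −1.70 ± 0.51 (adjusted p = 0.0235 by edgeR) and −1.71 (adjusted p = 0.0395) without stroke replicate 3, but it missed the threshold without sham replicate 2 (−1.59, adjusted p = 0.0580), sham replicate 3 (−1.26, 0.0965), stroke replicate 1 (−1.61, 0.0759) or stroke replicate 2 (−1.47, 0.0682). At day 14 Pmaip1 was back at 128, 50.02, 81.8 and 223 CPM, all above the day 2 libraries: against day 2 it rose by 2.50 ± 0.52 (adjusted p = 0.0117 by edgeR), where 6.93% of all genes passed, 2.45 (adjusted p = 0.0540) without stroke day 2 replicate 1 and 2.50 (adjusted p = 0.0231) without replicate 3.

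Trp53inp1 was at 16.7, 58.8, 17.0 and 17.99 CPM in sham and at 11.2, 6.65, 1.10 and 4.70 CPM at day 2. The groups did not overlap, and sham replicate 2 stood far above the rest. The change was −1.78 ± 0.53 (adjusted p = 0.0218 by edgeR) and −1.76 (adjusted p = 0.0339) without stroke replicate 3, and it missed the threshold without sham replicate 2 (−1.02, adjusted p = 0.0791) or stroke replicate 4 (−1.53, 0.0918). At day 14 it was at 11.1 to 15.9 CPM and did not pass against either group.

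Mdm2, the feedback regulator, did not pass in microglia with the scaling used. It was at 69.3, 55.2, 69.5 and 55.0 CPM in sham, at 46.5, 26.8, 104 and 34.3 CPM at day 2 (−0.48 ± 0.27, adjusted p = 0.174, and −0.59, 0.0780, without stroke replicate 3, by edgeR) and at 35.5, 28.6, 40.4 and 39.7 CPM at day 14. All day 14 libraries lay below all sham libraries in CPM, but with TMM scaling the change was −0.32 ± 0.24 (adjusted p = 0.390, edgeR). Scaled by library size alone it was −0.77 (adjusted p = 0.0393), where the median of all genes in that comparison moved from −0.04 to −0.49, so relative to that median it was small under both. Trp53 RNA itself, the source of p53, did not pass at day 2 (93.7 ± 25.2 against 98.1 ± 31.3 CPM; −0.04, adjusted p = 0.921, edgeR).

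**Figure D2:**
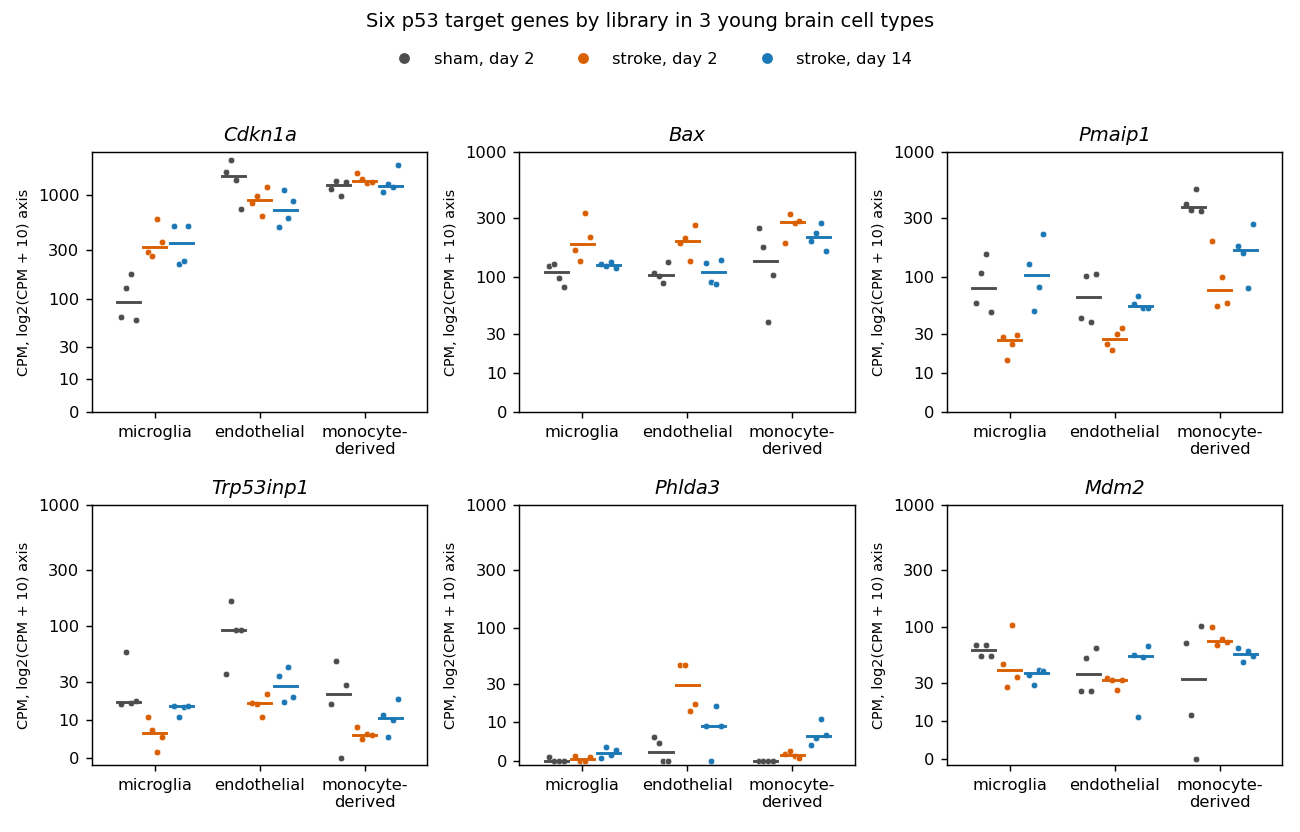
Levels of 6 of the genes by library in microglia, endothelial cells and monocyte-derived cells of young brain (CPM on a log2(CPM + 10) axis; points are libraries, short lines are group medians). Day 2 libraries lie above sham for Cdkn1a in microglia only, above sham for Bax in microglia and endothelial cells, and below sham for Pmaip1 in all 3 types.

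Lists of other genes of the pathway, from textbook knowledge, gave the surroundings of these changes in microglia at day 2, with the same 31.4% of all genes called. Of 10 regulators of p53 tested (12 listed), 1 rose, the checkpoint kinase Chek2 (1.51 ± 0.37), and 2 fell, Trp53bp1 and Usp7. Of 11 other targets for arrest and repair tested (14 listed), none rose and 3 fell: the repair genes Xpc and Ercc5 and Gadd45a, a growth arrest gene, from 15.6 ± 6.93 to 3.76 ± 2.72 CPM (−2.17 ± 0.45, adjusted p = 0.00366 by edgeR). Of 5 other death targets tested (10 listed), Siva1, which encodes an apoptosis-inducing factor, rose by 1.75 ± 0.32. Of 9 targets with metabolic and other roles (12 listed), 3 rose: Ckap2, which encodes a spindle protein, by 5.48 ± 0.84; Psrc1, another spindle gene, which had 0 counts in all sham libraries and was at least 18.3-fold higher against a floor of 3 counts over the sham group; and Gdf15, which encodes a stress cytokine (3.27 ± 0.92). Gdf15 no longer passed when sham replicate 1 (2.88, adjusted p = 0.0505) or stroke replicate 4 (2.14, 0.157) was left out. The calls of Trp53bp1, Usp7, Xpc and Ercc5 were each lost without one or another single library, and that of Gadd45a was kept with any library left out. The medians of the 4 lists were −0.50, −0.76, −0.13 and 0.80, against −0.05 over all genes.

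Among the nearest relatives of the members the calls were also divided. Of 8 genes of the BCL2 family tested, the pore-forming Bak1 rose by 1.65 ± 0.36 and the BH3-only gene Bmf fell by 2.06 on the log2 scale, from 56.7 ± 8.64 to 9.73 ± 6.60 CPM, with 1 more call each way, that of Bcl2l11 (−1.39 ± 0.39) lost without stroke replicate 1 (−1.23, adjusted p = 0.0725) or 4 (−1.28, 0.0657). Of 4 cyclin-dependent kinase inhibitors tested, Cdkn2c (2.82 ± 0.44) and Cdkn2d (2.44 ± 0.45) rose as Cdkn1a did, and Cdkn1c fell from 40.9 ± 7.16 to 3.38 ± 4.202 CPM (−2.92 ± 0.48, adjusted p = 0.000887 by edgeR). All 12 proliferation genes listed rose at day 2, with a median of 6.36, and 11 of 12 at day 14, with a median of 3.08. Top2a, a DNA topoisomerase of dividing cells, went from 3.67 ± 4.48 to 308 ± 119 CPM at day 2 and stood at 30.2 ± 3.09 CPM at day 14. At day 2, 4 of 10 early response genes fell, Jun for example from 3447 ± 2247 to 500 ± 399 CPM (lost without sham replicate 3, −2.05, adjusted p = 0.0681, or stroke replicate 1, −2.23, 0.0652). Without stroke replicate 3, the values were 1.58 for Chek2, 1.69 for Siva1, 5.51 for Ckap2, 3.31 for Gdf15, 1.61 for Bak1, −2.02 for Bmf, 2.91 for Cdkn2c, 2.27 for Cdkn2d and 7.04 for Top2a, all still called by edgeR, as was Cdkn1c, and Usp7 missed the threshold (−1.17, adjusted p = 0.0564). The part of these genes in the members' changes was not tested.

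The authors' finer annotation splits microglia into 8 states, and the members differed between them. These states were clustered on the same cells, so the values are a description. Cdkn1a was at 37.2 CPM (all libraries pooled) in state Mg1 and 159 CPM in Mg2, which came to 89.9% and 86.2% from sham, and at 375 and 391 CPM in Mg4 and Mg5, which came to 85.5% and 79.9% from stroke day 2. It was at 380 CPM in Mg3, 93.8% of which came from stroke day 14, and highest, at 568 CPM, in Mg6, 53.2% of which came from stroke day 14. It was at 283 CPM in Mg7 (90.8% from stroke day 14) and 67.7 CPM in Mg8 (75.4% from sham). Pmaip1 was at 256 CPM in Mg6 and at 29.4 and 34.3 CPM in Mg4 and Mg5, while Bax was at 211 and 198 CPM in Mg4 and Mg5 and at 101 to 131 CPM in Mg1, Mg2, Mg3, Mg6 and Mg7, with Mg8 in between at 150.6 CPM on 45.5 counts.

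Endothelial cells, which line the vessels, shared the changes of Bax, Pmaip1 and Trp53inp1 at day 2 in direction but not that of Cdkn1a. Of the 6 members tested, 3 passed, in a comparison in which 13.3% of 5833 genes did. Bax was at 107, 102, 89.2 and 133 CPM in sham and at 189, 207, 135 and 264 CPM at day 2, without overlap. It rose by 1.02 ± 0.26 (adjusted p = 0.0172 by edgeR; 0.96, adjusted p = 0.0620, without sham replicate 3). By day 14 it had fallen against day 2 by 0.96 ± 0.25 on the log2 scale (adjusted p = 0.0220 by edgeR), where 11.2% of all genes passed, to 129, 91.2, 86.6 and 138 CPM. Those groups overlapped, and the call was lost without stroke day 2 replicate 4 (−0.80, 0.0571), day 14 replicate 2 (−0.90, 0.0695) or day 14 replicate 3 (−0.86, 0.0604).

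Trp53inp1 was at 36.2, 164, 92.4 and 92.8 CPM in sham endothelial cells and at 17.3, 16.6, 11.2 and 21.9 CPM at day 2. All stroke libraries lay below all sham libraries, and the change of −2.33 ± 0.45 (adjusted p = 0.00438 by edgeR) was kept with any library left out. Pmaip1 was at 43.3, 102, 39.7 and 106 CPM in sham and at 23.6, 20.2, 30.1 and 34.4 CPM at day 2, again without overlap (−1.32 ± 0.37, adjusted p = 0.0263 by edgeR). That call was lost without sham replicate 2 (−0.99, adjusted p = 0.155), sham replicate 4 (−1.15, 0.0879), or stroke replicate 1 (−1.22, 0.0683), 2 (−1.22, 0.0570) or 3 (−1.35, 0.0544), and with no filter on low counts (−1.28, 0.0563). At day 14 Pmaip1 was at 53.3 to 68.3 CPM, above all day 2 libraries (0.97 ± 0.36, adjusted p = 0.0953, edgeR).

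Cdkn1a started high in the endothelium, at 1608, 2106, 1356 and 739 CPM in sham, and was at 834, 971, 627 and 1169 CPM at day 2. These groups overlapped (−0.60 ± 0.34, adjusted p = 0.246, edgeR). At day 14 it was at 497 to 1110 CPM. Mdm2 (41.7 ± 20.4 CPM in sham, 30.6 ± 3.99 at day 2) and Ccng1 (56.7 ± 29.0 and 58.3 ± 7.70 CPM) did not pass. Against sham at day 14 none of the 6 members and none of all genes (0.0%) passed in edgeR; at an unadjusted p under 0.05 there were 2 members, Cdkn1a and Trp53inp1, and 356 genes, and DESeq2 called none of the members.

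Phlda3, whose product holds Akt in check, did not pass the filter on low counts and was examined by its counts. The sham endothelium held 1.99, 0.999, 0 and 0 counts of it and the day 2 endothelium 26.0, 16.0, 5.95 and 12.9, which is 5.27, 3.69, 0 and 0 CPM against 46.2, 46.5, 14.4 and 17.6 CPM. The groups did not overlap, the ratio of the pooled counts was 8.58 (95% counting interval 2.80 to 42.8), and the exact two-sided permutation test gave p = 0.0286, the smallest value that 4 against 4 libraries allow. At day 14 it was at 8.78, 0, 17.0 and 8.62 CPM and overlapped both other groups: the ratio was 2.54 (0.658 to 14.5) against sham (exact p = 0.2), and the ratio of day 2 to day 14 was 3.38 (1.71 to 7.36). In aged endothelium Phlda3 was at 7.52 and 0 CPM in sham and at 4.03, 15.96 and 13.4 CPM at day 2, on at most 1.97 counts a library, and the groups overlapped. In young microglia it was at 0.583, 0, 0 and 0 CPM in sham and at 0.428, 2.83, 1.07 and 2.03 CPM at day 14, with overlap (ratio 8.08, interval 1.12 to 353; exact permutation p = 0.0571). The interval covers counting error only. In monocyte-derived cells Phlda3 was at 3.23 to 11.1 CPM at day 14 and at 0.409 to 1.97 CPM at day 2, without overlap (ratio 5.82, interval 2.75 to 13.7). The 4 sham libraries had 0 counts of it, but their sums held only 18299 to 112149 counts. That is too few to tell 0 from the levels after stroke. Libraries of day 2 and day 14 with the same replicate number deviated together in endothelial and monocyte-derived cells, so the ratios between these 2 times are given as descriptions, without a p-value. The edgeR comparisons of these 2 times in both cell types treat the libraries as independent and share that limit. Their counts of members called were the same with the replicate number as a block.

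In the authors' finer annotation, the endothelial state EC2 came to 91.0% from stroke day 2 libraries. Its pooled values, again a description, were 275 CPM of Bax, 46.1 CPM of Phlda3, 24.3 CPM of Pmaip1 and 10.9 CPM of Trp53inp1, against 114, 8.07, 69.6 and 57.3 CPM in EC1, the largest state. The 6 microglial markers summed to 3733 to 6830 CPM in the endothelial cells at day 2 against 1700 to 2523 CPM in sham, nearly all of it Sparc, a matrix gene that endothelial cells express too (3733 to 6830 against 1700 to 2523 CPM). P2ry12, Cx3cr1 and Sall1 were at most 2.14 CPM in any young group and Tmem119 at most 24.6 CPM. The endothelial marker list summed to 12882 to 16770 CPM at day 2 against 18185 to 26545 CPM in sham, and the part of this difference in the members' changes was not tested. The counts of other pathway genes at day 2 stand beside the 13.3% of all genes that passed there. Of 8 targets for arrest and repair tested 1 fell, the DNA polymerase gene Polk, from 295 ± 67.3 to 117 ± 14.5 CPM (−1.21 ± 0.24). Among 4 other cyclin-dependent kinase inhibitors 3 fell: Cdkn2b by 1.79, Cdkn1c by 1.21 and Cdkn1b by 1.01 on the log2 scale, the last lost without sham replicate 2 (−0.98, adjusted p = 0.0511). No regulator of p53, death target or BCL2 gene tested passed. Among the regulators, Trp53 RNA itself was at 91.4 ± 38.8 CPM at day 2 against 37.25 ± 28.3 CPM in sham, with overlap (1.22 ± 0.41, adjusted p = 0.0579, edgeR). Mdm4 was at 31.4 ± 2.39 against 57.7 ± 15.9 CPM, without overlap (−0.71 ± 0.27, adjusted p = 0.0977, edgeR). Of 10 early response genes tested 2 fell at day 2, Fosb and Jun. Fosb missed the threshold when sham replicate 2 was left out (−1.71, adjusted p = 0.0698) or 3 (−1.31, 0.116) or stroke replicate 3 (−1.37, 0.0555) or 4 (−1.71, 0.0583). Jun missed it without sham replicate 3 (−1.05, 0.0937) or 4 (−1.46, 0.0546) or stroke replicate 1 (−1.33, 0.0563) or 3 (−1.42, 0.0527). At day 14 against day 2, where 11.2% of all genes passed, 7 of the 10 were higher, these 2 among them; their part in the members' changes was not tested.

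The difference between the 2 cell types in Cdkn1a was tested directly. Per library, the level in microglia minus that in endothelial cells on the log2(CPM + 10) scale ran from −4.41 to −2.87 in sham and from −1.83 to −0.0843 at day 2, without overlap. The stroke response of microglia exceeded that of endothelial cells by 2.38, with an exact permutation p of 0.0286, the smallest that this design allows, and 0.1 when adjusted over the 7 members. Phlda3 gave the same p in the other direction (−1.63). In 1 edgeR fit of both cell types with the library as a block, an analysis added after the data were seen, the difference for Cdkn1a was 2.32 ± 0.32 (adjusted p = 1.3e-05; 6.99% of 9099 genes passed). It ranged from 2.07 to 2.70 with each library left out and was 2.26 (adjusted p = 2.22e-05) without stroke replicate 3. For Bax (−0.30 ± 0.30), Pmaip1 (−0.32 ± 0.47), Mdm2 (−0.41 ± 0.47), Ccng1 (−0.02 ± 0.34) and Trp53inp1 (0.31 ± 0.56) the difference did not pass.

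**Figure D3:**
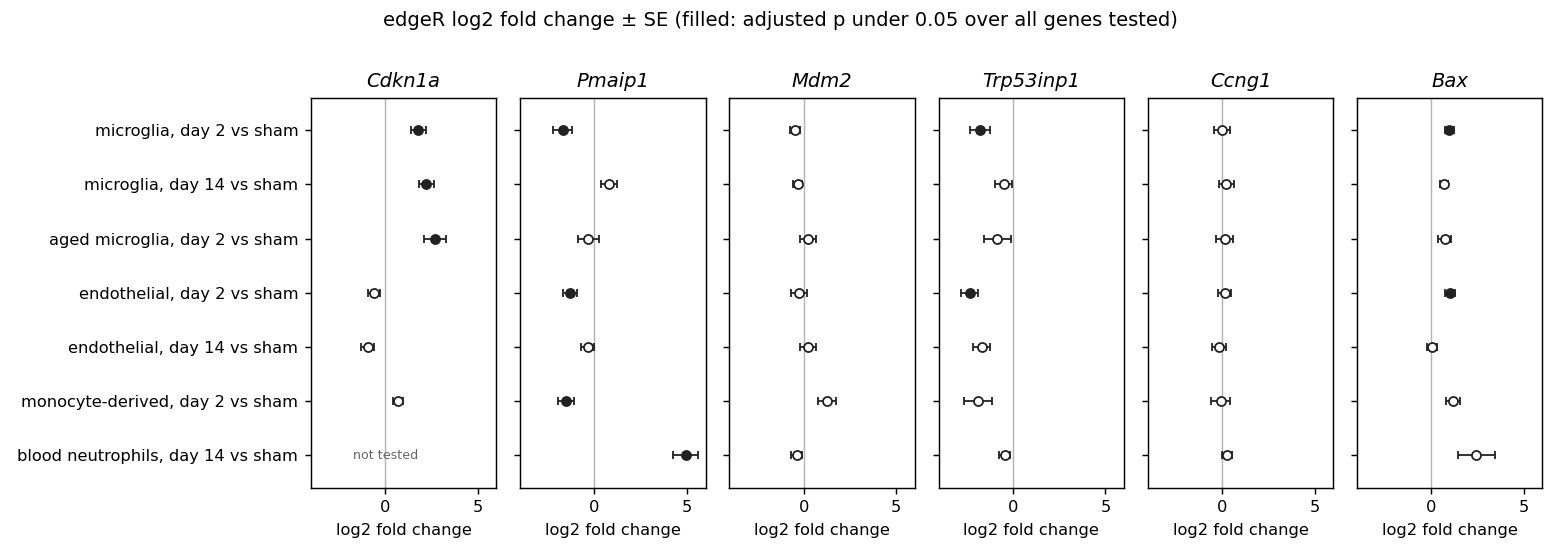
Log2 fold changes with their standard errors (edgeR) of 6 members in the main comparisons, filled where the adjusted p over all genes tested was under 0.05. Cdkn1a is filled in young microglia at day 2 and day 14 and in aged microglia at day 2, but not in endothelial cells, and Pmaip1 is filled on the left in 3 brain comparisons at day 2 and far to the right in blood neutrophils at day 14.

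Monocyte-derived cells, which come into the brain from blood, held Cdkn1a at a high level before and after stroke: 1139, 1331, 971 and 1305 CPM in sham, 1575, 1385, 1288 and 1298 CPM at day 2 and 1061 to 1896 CPM at day 14 (0.71 ± 0.26 at day 2, adjusted p = 0.128, edgeR). The sham libraries held only 43 to 99 of these cells each, against 1468 to 2180 at day 2. At day 2 against sham, 5 of the 6 members tested (Bax, Cdkn1a, Mdm2, Pmaip1 and Trp53inp1) had an unadjusted p under 0.05 in edgeR, as did 1623 genes. The changes of the 6 members ran from −1.87 to 1.25 on the log2 scale. After adjustment Pmaip1 alone passed at day 2, where 6.71% of 8080 genes did. It was at 388, 351, 508 and 343 CPM in sham and at 196, 56.1, 98.7 and 59.4 CPM at day 2, without overlap (−1.52 ± 0.42, adjusted p = 0.0425 by edgeR). This call was lost without sham replicate 1 (−1.50, 0.113), 2 (−1.40, 0.139), 3 (−1.25, 0.193) or 4 (−1.49, 0.0918) and without stroke replicate 2 (−1.39, 0.0571), 3 (−1.55, 0.0826) or 4 (−1.40, 0.0981), with no filter on low counts (−1.18, 0.109) and with at least 50 cells per library (−1.49, 0.0918). Bax was at 143 ± 91.8 CPM in sham and 269 ± 55.8 at day 2 (1.17 ± 0.38, adjusted p = 0.0856, edgeR). Between day 14 and day 2 none of the 6 members passed in edgeR or DESeq2 (none at an unadjusted p under 0.05 either), where 1.79% of genes did. Of the other pathway genes at day 2, 1 of 5 targets with metabolic and other roles passed: Gdf15 rose from 6.16 ± 8.02 to 68.5 ± 7.24 CPM (3.45 ± 0.74), kept with any library left out. Of 6 other death targets 1 passed, the BH3-only gene Bbc3, which fell from 59.9 ± 32.5 to 14.3 ± 5.25 CPM (−1.57 ± 0.43, adjusted p = 0.0400 by edgeR). The call of Bbc3 was lost without sham replicate 1 (−1.60, 0.152), 2 (−1.61, 0.0717), 3 (−1.17, 0.246) or 4 (−1.51, 0.0830) and without stroke replicate 2 (−1.56, 0.0622), 3 (−1.50, 0.0885) or 4 (−1.58, 0.0769). Of 8 BCL2 family genes 1 passed, Bmf (−2.33 ± 0.64, adjusted p = 0.0405 by edgeR), on 7.14 counts in sham. The call of Bmf was lost without any 1 of the sham libraries (for example −1.38, 0.591, without replicate 1). None of 6 regulators and 8 targets for arrest and repair passed in edgeR.

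Pmaip1 was also the member called in border-associated macrophages, the macrophages of the brain's surfaces, at day 2: 264.5, 325, 497 and 614 CPM in sham against 152, 0, 145 and 70.1 CPM (−2.05 ± 0.52, adjusted p = 0.0480 by edgeR, where 2.67% of 1313 genes passed). The 4 cell types in which Pmaip1 fell at day 2 come from the same libraries. In brain granulocytes, Cdkn1a passed at day 14 (378, 0, 383 and 1091 CPM against 83.1, 56.7, 105 and 100 CPM in sham; 2.27 ± 0.59, adjusted p = 0.00763 by edgeR, where 26.1% of 994 genes passed), although replicate 2 was at 0 and the groups overlapped. For these 2 types, and for blood dendritic cells, single libraries were not left out in turn.

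In aged mice, microglia gave the same member at day 2. Cdkn1a was at 65.0 and 85.0 CPM in the 2 sham libraries and at 357, 811 and 203 CPM in the 3 stroke libraries, without overlap. It rose by 2.68 ± 0.60 (adjusted p = 0.0286 by edgeR) and alone passed among the 6 members tested, where 2.3% of 11096 genes did. The call was lost without the male sham library (2.47, adjusted p = 0.186), the female sham library (2.89, 0.182) or female stroke replicate 1 (1.91, 0.144), and with only the compared groups in the fit (2.59, 0.0980). The day 14 library was at 241 CPM. Bax was at 84.5 and 135 CPM in sham and at 146, 155 and 208 CPM in stroke (0.72 ± 0.37, adjusted p = 0.355), and Pmaip1 at 48.9 and 61.3 against 42.9, 61.3 and 8.98 CPM. Mdm2 (53.7 ± 8.18 against 55.7 ± 33.3 CPM), Ccng1 (98.0 ± 27.8 against 101 ± 41.9 CPM) and Trp53inp1 (16.8 ± 4.78 against 7.94 ± 7.22 CPM) did not pass either. Phlda3, too low to test, was at 0 CPM in both sham libraries and at 4.79, 5.19 and 4.17 CPM in stroke, on 3, 5.58 and 0.911 counts, and at 0 in the day 14 library. The stroke response did not differ detectably between the aged and young libraries: for Cdkn1a the aged response minus the young was 0.87 ± 0.70 (adjusted p = 0.823 by edgeR). Young libraries were all male and aged libraries of both sexes, and the aged tables listed 27514 genes against 19704 in young brain. With few aged libraries besides, this is no comparison of age alone. No member and no gene passed that interaction (0.0%), with 623 genes and no member at an unadjusted p under 0.05 and no member called by DESeq2. Stroke libraries of aged microglia held 10218 to 17563 CPM of the microglial markers against 21770 to 22877 CPM in sham, and 11.5 to 161 against 40.6 to 44.4 CPM of the monocyte markers; the part of these in the result was not tested.

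In blood, the order of levels was in part that of the brain. Bax and Ccng1 were lowest in blood neutrophils as in brain granulocytes, and Cdkn1a had its highest median in monocytes as in brain monocyte-derived cells. Neither first place for Cdkn1a passed the test against the next type. Blood monocytes exceeded eosinophils and basophils (median 94.8 CPM) in 3 of 7 libraries (adjusted p = 0.942, exact permutation). Brain monocyte-derived cells exceeded endothelial cells in 9 of 12 (adjusted p = 0.299, exact permutation). The orders of the 2 tissues were not compared by a test. Trp53inp1 was highest in neutrophils, at a median of 218 CPM over 11 libraries, above T cells (131 CPM; difference 0.86 on the log2(CPM + 10) scale, 11 of 11 libraries, adjusted p = 0.0114, exact permutation), which lay above B cells (82.8 CPM; 0.61, 11 of 11, adjusted p = 0.0114). Bax was lowest in neutrophils, at 6.39 CPM, below B cells at 94.9 CPM in 11 of 11 libraries (2.44, adjusted p = 0.0114, exact permutation), and so was Ccng1 (67.2 against 115.5 CPM; 0.94, adjusted p = 0.0114). Pmaip1 was higher in monocytes (71.3 CPM) than in B cells (18.1 CPM, difference 1.597, 11 of 11 libraries, adjusted p = 0.0114, exact permutation). It was also higher in neutrophils (11.1 CPM) than in NK cells (0 CPM, difference 1.496, 10 of 11 libraries, adjusted p = 0.0413, exact permutation). All groups are pooled there, and neutrophils ran from 1.21e-05 to 182 CPM, highest at day 14. That difference therefore holds the rise at day 14 as well as the cell type. NK sums were also smaller, at 121234 to 132766 counts at day 14 against 212122 to 609562 in neutrophils. The median of Cdkn1a was 101 CPM in monocytes and at or below 3.02 CPM in B, T and NK cells and neutrophils. The median of Mdm2 lay between 42.3 and 61.8 CPM in every blood type, and Phlda3 had a median of 0 in all of them.

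At day 2 after stroke no member passed in neutrophils, monocytes, B cells or T cells, nor did any other gene (0.0% in each by edgeR). At an unadjusted p under 0.05 there were 209, 189, 171 and 138 genes, among them Cdkn1a in monocytes (130 ± 36.5 against 84.1 ± 27.5 CPM) and Pmaip1 in B cells (23.5 ± 14.2 against 9.70 ± 5.61 CPM), and DESeq2 called no member.

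Pmaip1 in blood neutrophils was the exception at day 14. It was at 1.05, 1.21e-05, 7.34 and 11.1 CPM in sham, at 3.86, 26.0, 28.2 and 5.36 CPM at day 2 and at 142, 112 and 182 CPM at day 14. These values rested on 2.38, 7e-06, 8.01 and 2.70 counts (the deposited counts are fractional) in sham and 69.2, 68.2 and 38.6 counts at day 14. All day 14 libraries lay far above the others, by 4.94 ± 0.68 against sham (adjusted p = 0.00105 by edgeR, where 5.99% of 4944 genes passed) and by 3.48 ± 0.59 against day 2 (adjusted p = 0.00374, 4.69% of genes), and the first was kept with any library left out, which was not run for the second. Bax was the next member, at 3.12, 3.49, 0.183 and 12.8 CPM in sham and 28.0, 18.4 and 20.3 CPM at day 14, without overlap. It missed the threshold (2.43 ± 0.99, adjusted p = 0.171, edgeR) and passed with no filter on low counts (2.31, adjusted p = 0.0415). Trp53inp1 (236 ± 110 CPM in sham, n = 4, and 219 ± 33.0 at day 14, n = 3), Mdm2 and Ccng1 did not pass, and Cdkn1a was too low to test, at 0 to 4.92 CPM in sham and 0, 2.30 and 0 CPM at day 14.

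In the finer annotation Pmaip1 was highest in the neutrophil state Neu3, at 130 CPM pooled against 0 to 16.9 CPM in the 5 other states. Bax was at 18.9 CPM there against 1.77 to 8.59 CPM. Of the 2898 cells of Neu3, 72.8% came from day 14. The states were clustered on the same cells, so these values are a description, and state and day cannot be told apart. The neutrophil marker list summed to 110786 to 188932 CPM in day 14 neutrophils against 197359 to 301418 CPM in sham, and the monocyte list to 359 to 1703 against 341 to 753 CPM. Their part in the result was not tested. Of the other lists in that comparison, the stress-induced transcription factor gene Atf3 rose from 15.4 ± 9.74 to 138 ± 25.3 CPM (3.13 ± 0.49), and 1 of 7 targets for arrest and repair (Gadd45a, −0.99 ± 0.23) and 1 of 2 cyclin-dependent kinase inhibitors tested (Cdkn2d, −1.28 ± 0.29) fell. Both of those calls were lost without sham replicate 1 (−0.94, adjusted p = 0.0621, and −1.20, 0.0518), among others.

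In monocytes, B cells and T cells at day 14 no member passed in edgeR or DESeq2, where 0.254%, 0.0114% and 0.0% of genes did. At an unadjusted p under 0.05 there was only Pmaip1 in B cells, at 6.06, 18.1, 7.08 and 7.61 CPM in sham and 19.7, 19.8 and 26.6 CPM at day 14, without overlap (1.22 ± 0.41). Blood dendritic cells gave a Pmaip1 call (−2.47 ± 0.56, adjusted p = 0.00145 by edgeR, 1.48% of genes) that rested on 2 sham libraries at 675 and 0 CPM.

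Further comparisons of young mice in which no member passed in edgeR are given here with the share of all genes that did; DESeq2 was not run on them. In brain these were monocyte-derived cells at day 14 against sham (5.15%), granulocytes at day 2 against sham (8.35%) and at day 14 against day 2 (4.23%), and T cells at day 14 against sham (0.0954%). Border-associated macrophages at day 14 against sham (0.0762%) and against day 2 (0.838%) gave no member either, nor did dendritic cells at day 2 (1.01%) and day 14 (1.53%) against sham and at day 14 against day 2 (0.893%). In blood these were monocytes (0.537%) and B cells (0.0114%) at day 14 against day 2. At an unadjusted p under 0.05, Cdkn1a was higher in granulocytes at day 2 (1.71 ± 0.61) and in monocyte-derived cells at day 14 (0.64 ± 0.26) against sham, and lower in dendritic cells at day 14 against sham (−0.71 ± 0.26) and in blood monocytes at day 14 against day 2 (−0.60 ± 0.27). Pmaip1 was lower in dendritic cells at day 2 against sham (−0.97 ± 0.40). In border-associated macrophages both Cdkn1a (1.28 ± 0.50) and Pmaip1 (1.56 ± 0.56) were higher at day 14 than at day 2.

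**Figure D4:**
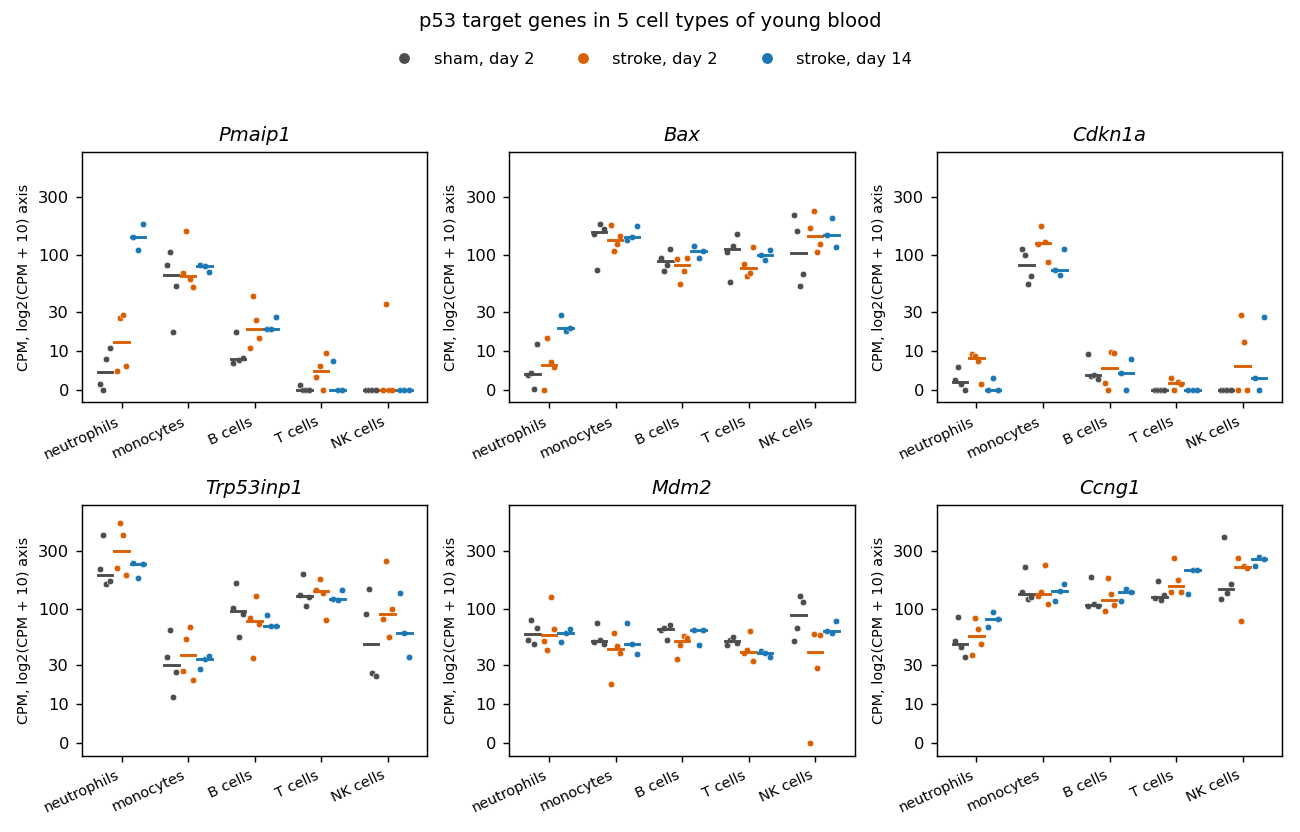
Levels of 6 members in 5 cell types of young blood by library (CPM on a log2(CPM + 10) axis; points are libraries, short lines are group medians, colours are groups). The 3 day 14 libraries of neutrophils stand alone for Pmaip1 at 112 to 182 CPM, with Bax next at 18.4 to 28.0 CPM.

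Finally, related annotated cell types were compared between brain and blood at day 2 after stroke. Tissue, sorting and dissociation differ together there and cannot be told apart. The annotations differ as well: blood had a type of eosinophils and basophils apart from neutrophils, and brain granulocytes were not split in this way. That blood type held Cdkn1a at a median of 94.8 CPM over 7 libraries of all groups, against 1.83 CPM in neutrophils. Monocyte-derived cells of the brain differed from blood monocytes in 5 of the 6 members tested, where 24.7% of 7540 genes did. Cdkn1a was at 1575, 1385, 1288 and 1298 CPM in brain and at 126, 177, 131 and 87.8 CPM in blood (3.74 ± 0.26, adjusted p = 3.53e-06 by edgeR). Mdm2 (80.4 ± 13.9 against 41.5 ± 17.6 CPM; 1.34 ± 0.32, adjusted p = 0.00866) and Bax (269 ± 55.8 against 139 ± 29.6 CPM; 1.19 ± 0.26, adjusted p = 0.00541) were higher in brain as well. Trp53inp1 was lower, at 7.36, 4.10, 5.32 and 5.15 CPM against 25.9, 54.3, 69.7 and 20.9 CPM (−2.58 ± 0.42, adjusted p = 0.000691). None of these groups overlapped, and the 4 calls were kept with any library left out.

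Ccng1 was lower in the brain cells too, at 65.4 ± 12.9 against 151 ± 53.6 CPM (−0.92 ± 0.29, adjusted p = 0.0348 by edgeR), a call that 5 of the 8 single libraries decided. It was lost without brain replicate 1 (−0.75, adjusted p = 0.0693), without blood replicate 1 (−0.95, 0.0852), 2 (−0.96, 0.0626), 3 (−0.60, 0.197) or 4 (−0.99, 0.0520), and with no filter on low counts (−0.78, 0.115). Pmaip1 did not pass (103 ± 65.1 against 86.7 ± 49.9 CPM).

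Granulocytes of the brain against blood neutrophils gave the same 2 directions. The brain sums held only 53 to 148 cells and 19110 to 92316 counts each, so low values in them rest on few counts. Cdkn1a was at 601, 320, 157 and 287 CPM in brain and at 8.96, 8.33, 6.76 and 1.02 CPM in blood (5.61 ± 0.56, adjusted p = 3.35e-06 by edgeR, where 9.16% of 1976 genes passed). Trp53inp1 was at 52.2, 45.6, 109 and 58.9 CPM against 218, 501, 402 and 189 CPM (−2.13 ± 0.46, adjusted p = 0.00573). Neither pair of groups overlapped, both calls were kept with any library left out, and Mdm2, the only other member tested, did not pass (0.50 ± 0.60).

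Other genes of the pathway differed between brain and blood in both directions, beside the 24.7% and 9.16% of all genes. Of 8 other targets for arrest and repair tested between monocyte-derived cells and monocytes, 5 were higher, with Plk3, a stress-responsive kinase, at 136 ± 23.0 against 5.87 ± 4.16 CPM (5.18 ± 0.42) and Btg2, an antiproliferative gene, at 566 ± 158 against 169 ± 74.8 CPM, and 2 were lower. Lower in the monocyte-derived cells were the death receptor gene Fas, at 17.3 ± 4.55 against 60.6 ± 12.03 CPM (1 of 6 death targets, none higher), and Dram1 (−1.30 ± 0.27; 1 of 3 with metabolic and other roles, none higher), a regulator of autophagy. Of 8 BCL2 family genes 3 were higher and 2 lower. The antiapoptotic Bcl2l1 was at 40.4 ± 8.11 against 1.69 ± 2.95 CPM (4.64 ± 0.66) and its relative Bcl2a1b at 234 ± 139 against 41.0 ± 14.7 CPM (2.79 ± 0.43), while the BH3-only gene Bmf was lower (−2.73 ± 0.37). In granulocytes against neutrophils 1 of 2 passed, Bcl2a1b, at 349 ± 224 against 5.35 ± 5.34 CPM (5.65 ± 0.63). Usp7, a deubiquitinase that acts on Mdm2 and p53, was lower in both brain cell types (−1.05 ± 0.32 and −2.37 ± 0.60), 1 of 7 and 1 of 2 regulators tested. In monocyte-derived cells it missed the threshold without brain replicate 3 (−1.06, adjusted p = 0.0658) or 4 (−0.88, 0.0789) or blood replicate 2 (−0.90, 0.0914) or 3 (−0.82, 0.140), and in granulocytes without brain replicate 4 (−1.94, 0.0814). All brain granulocyte libraries of that comparison together held only 6.19 counts of Usp7. Between granulocytes and neutrophils, Plk3 and Btg2 were again higher, 2 of 5 tested. In the same comparisons 8 of 10 and 3 of 9 early response genes were higher, Egr1 for example at 377 ± 214 CPM in granulocytes against 7.72 ± 13.5 CPM in neutrophils, and their part in the members' differences was not tested.

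**Figure D5:**
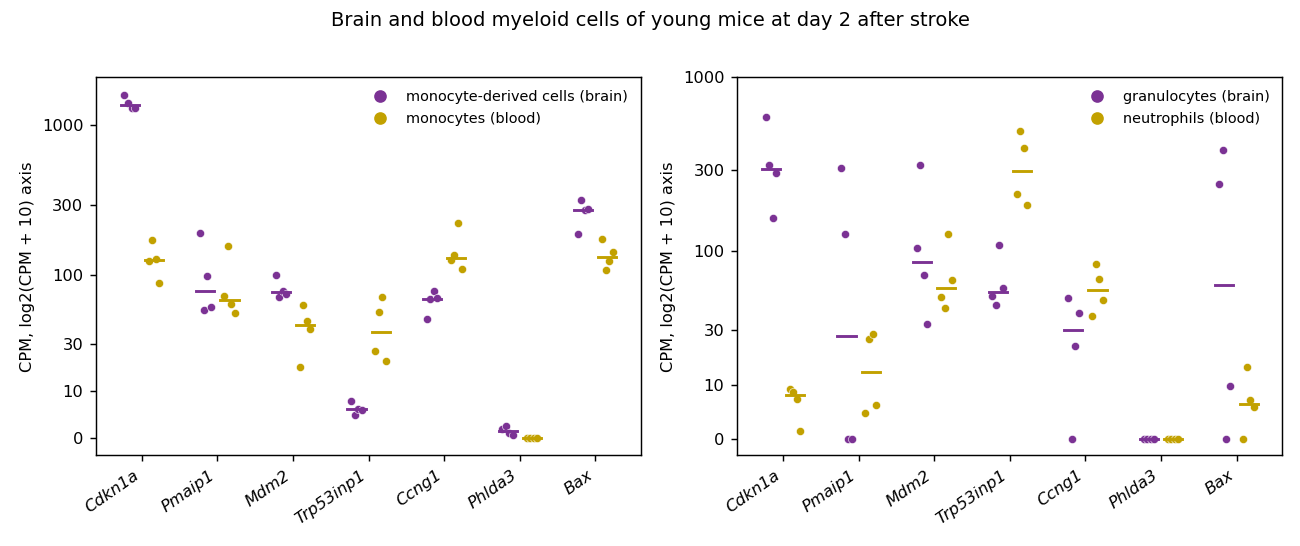
The 7 members at day 2 after stroke in brain monocyte-derived cells against blood monocytes (left) and in brain granulocytes against blood neutrophils (right), with 4 libraries each (CPM on a log2(CPM + 10) axis; points are libraries, short lines are medians). Cdkn1a is higher and Trp53inp1 lower in the brain cells in both panels, without overlap.

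Across the 48 sums of library and cell type in young brain that held at least 100000 counts, the genes whose levels ran most like each member were taken among 6382 genes. For Cdkn1a they were Myof (Pearson r = 0.86) and Anxa5 (0.85), for Pmaip1 Uvrag (0.86) and Rnase6 (0.83), for Bax Prdx1 (0.84) and Vma21 (0.81), and for Phlda3 Ackr1 (0.81) and Npdc1 (0.73). For Trp53inp1 they were Ing1 (0.80) and Rapgef6 (0.79), for Ccng1 Hspa4 (0.73) and Smchd1 (0.73), and for Mdm2 Zfp120 (0.61) and B4galt1 (0.57). Among the members themselves the values ran from −0.52 between Bax and Trp53inp1 to 0.43 between Pmaip1 and Cdkn1a. Sums of the same library share its depth and those of the same type its identity, so these values describe the sums and are not tests.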

How the data were processed

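Per the submitters' processing notes, the data were handled with Seurat and the mouse build mm10; the aligner and annotation are not given in the sources used here. The deposited tables hold estimated counts per gene and cell, not normalized and mostly fractional (whole values were 0.00866% to 4.47% of the entries above 0), with the authors' cell types in accompanying tables. Doublet treatment is not given in the sources used here, and no doublet caller was run.

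For each library, the counts of all cells of a type were added up and rounded to whole numbers. A sum was left out where the library had fewer than 20 cells of the type. Each comparison was fitted across all genes with edgeR 4.0.16 (R 4.3.3; quasi-likelihood test, TMM scaling, filterByExpr by group, limma 3.58.1 installed), with Benjamini-Hochberg adjustment over all genes tested and a threshold of 0.05. The SE is the log2 fold change divided by the root of the F statistic. DESeq2 1.42.0 was an alternative, and the fits were tested on simulated data. Levels over cell types were compared by exact sign-flip permutation on log2(CPM + 10). All 7 members were examined in each comparison, with values given for those a result turns on; of each pathway list, the called genes are named, up to the 3 with the largest change, from which the text takes examples. The members and lists were chosen with earlier results of these data known.

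Libraries are pools of animals, and nothing more is said on their independence, so p-values measure the spread between these libraries. This was checked within young brain (microglia, endothelial and monocyte-derived cells) and within blood (neutrophils, monocytes, B and T cells). There, samples with the same replicate number deviated together in every pair (r over 0.1) only between stroke day 2 and day 14, in endothelial cells (0.14 to 0.48) and monocyte-derived cells (0.27 to 0.76). No comparison with sham did so. Libraries with different numbers also deviated together or apart, from −0.64 to 0.53 in monocyte-derived cells between these days, so the number alone does not describe the pattern. Depth limits the low genes: 3 counts over a group was taken as the floor, and 95% intervals of count ratios cover counting error only.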

Additional observations from a re-analysis of the deposited data

Results flagged for a closer look

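Of 107 groups of 4 libraries examined for the members, 9 held 1 library whose gap to the nearest of the others, divided by the range of the group, passed Dixon's 95% limit, which by its construction marks about 1 in 20 groups of normally distributed values. In microglia, Trp53inp1 was at 58.8 CPM in sham replicate 2 (others 16.7 to 17.99 CPM) and at 11.1 CPM in stroke day 14 replicate 2 (others 15.4 to 15.9 CPM), and Ccng1 was at 246 CPM in stroke day 2 replicate 3 (others 87.1 to 100 CPM), the library with 58 microglia. In endothelial cells, Mdm2 was at 24.7 CPM in stroke day 2 replicate 3 (others 32.1 to 33.5 CPM). In blood B cells of sham mice, replicate 2 was high for Ccng1 at 182.7 CPM (others 104.6 to 109.4 CPM) and for Pmaip1 at 18.05 CPM (others 6.06 to 7.61 CPM), and replicate 1 for Cdkn1a at 9.05 CPM (others 2.03 to 3.02 CPM). In blood monocytes, Mdm2 was at 74.9 CPM in sham replicate 2 (others 48.5 to 52.4 CPM) and Pmaip1 at 160.8 CPM in stroke day 2 replicate 2 (others 52.8 to 70.8 CPM).

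The response of Cdkn1a to stroke at day 2 differed between microglia and endothelial cells by 2.32 on the log2 scale in 1 edgeR fit of both types (adjusted p = 1.3e-05). That fit tests the difference itself and was added after the data were seen. The exact permutation test gave p = 0.0286, the smallest that the design allows, and 0.1 after adjustment over the members, which did not pass.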

How the results depend on the processing

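Alternatives were run for the main comparisons, not for the calls in border-associated macrophages, brain granulocytes at day 14, blood dendritic cells and neutrophils at day 14 against day 2. Of 293 alternatives to the 20 member results that passed the threshold there, 256 kept the call, 37 lost it and none reversed it; of 1342 alternatives to the 89 that did not pass, 7 passed. The share of all genes that passed under each alternative is not given here, so a change in a count of members does not set them apart from other genes. The count of members called in microglia at day 14 against sham went from 1 to 2 with library size without TMM, with values rounded up per cell, with a term for a low mitochondrial share (added after the data were seen) and with only the groups compared. It went from 1 to 2 in endothelial cells at day 14 against day 2 with only the groups compared, and in blood neutrophils at day 14 with no filter on low counts. It went from 1 to 0 in monocyte-derived cells at day 2 with at least 50 cells per library and in aged microglia with only the groups compared. The count of differences between neighbouring cell types was 11, and 0 of 70 pairs with the stroke libraries only; with so few libraries these 11 could not pass the adjusted exact test on their own, so this says nothing on their stability. The response of microglia against endothelial cells went from 0 to 1 members with 1 edgeR fit, also added after the data were seen. With each library left out, the count was 2 to 4 in microglia at day 2 and 0 to 1 at day 14 against day 2, 2 to 3 in endothelial cells at day 2 and 0 to 1 at day 14 against day 2, 0 to 1 in monocyte-derived cells at day 2, 0 to 1 in aged microglia, and 4 to 5 between brain monocyte-derived cells and blood monocytes.

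With the replicate number as a block, the counts of members called were 4 (day 2), 1 (day 14) and 1 (day 14 against day 2) in microglia, 3, 0 and 1 in endothelial cells, 1 (day 2) and 0 (day 14 against day 2) in monocyte-derived cells and 1 at day 14 in blood neutrophils, each as without it. In the other blood comparisons with sham the count was 0 with and without this pairing.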
